A study of Mus musculus with 6 samples.

Results

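HOX genes encode the homeodomain transcription factors that give cells their position along the head-to-tail axis in the embryo. The set described here is every gene whose single annotated symbol is Hox followed by a cluster letter (a, b, c or d) and a number, read from the brightest probe set per gene. It holds 36 genes, among 22180 genes with a probe set of 1 symbol. Hoxa11 and Hoxd4 are not among them, since their probe sets list several symbols. The groups were aortas of mice deficient in eNOS, the endothelial nitric oxide synthase that Nos3 encodes, with samples numbered 11, 15 and 19, and aortas of age-matched wild-type mice (WT), with samples numbered 2, 3 and 5. Each sample was measured on 1 Affymetrix array. The sources used here do not give the segment of aorta, the strain, the allele, the sex or the age itself, nor whether each sample came from a separate animal, and p-values therefore measure only the spread between these samples.

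The genes lie in 4 clusters, Hoxa on chromosome 6, Hoxb on 11, Hoxc on 15 and Hoxd on 2, and carry paralogue numbers from 1 to 13. Genes with low numbers are switched on early and far forward in the embryo and genes with high numbers late and towards the tail, a rule called colinearity. Fibroblasts and smooth muscle cells keep much of this code into adult life, and along the aorta it differs between the arch, whose smooth muscle comes largely from neural crest, and the descending segments, whose smooth muscle comes from trunk mesoderm. HOX proteins bind DNA together with PBX and MEIS cofactors.

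The clusters also hold microRNAs, small RNAs that repress messages by pairing through a seed at bases 2 to 8, and HOX messages are among their known targets. Their mature sequences, from RefSeq (build GRCm38.p6), are shown because precursors of all but miR-196b were read on the arrays. That of miR-10a was read only together with Hoxb4. Capitals mark the seed.
mmu-miR-10a-5p: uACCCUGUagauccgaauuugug
mmu-miR-10b-5p: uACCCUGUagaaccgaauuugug
mmu-miR-196a-5p: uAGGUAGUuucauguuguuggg
mmu-miR-196b-5p: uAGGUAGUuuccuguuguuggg
mmu-miR-615-3p: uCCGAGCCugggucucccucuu
The miR-10 pair shares a seed and differs at 1 base (U12A, miR-10a first, counted from the 5′ end). The miR-196 pair shares another seed and also differs at 1 base (A12C, miR-196a first). miR-196a-5p is encoded identically by Mir196a-1 in the Hoxb cluster and Mir196a-2 in the Hoxc cluster, on the plus strand at chr11:96265187-96265208 and chr15:102973365-102973386.

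Promoter windows of a pair of paralogues, Hoxb1 and Hoxd1, are shown because their differences between the genotypes had opposite signs, as described below. Neither difference passed the threshold. Both genes were dim, averaging 4.88 and 5.12 log2, under the median of all probe sets (5.59). Each window runs from 250 bases before to 50 after the RefSeq gene start on the plus strand in GRCm38.p6, chr11:96365508-96365807 for Hoxb1 and chr2:74762730-74763029 for Hoxd1. Capitals mark TGATNNAT, the letters of a joint PBX and HOX recognition sequence, searched on both strands.
Hoxb1: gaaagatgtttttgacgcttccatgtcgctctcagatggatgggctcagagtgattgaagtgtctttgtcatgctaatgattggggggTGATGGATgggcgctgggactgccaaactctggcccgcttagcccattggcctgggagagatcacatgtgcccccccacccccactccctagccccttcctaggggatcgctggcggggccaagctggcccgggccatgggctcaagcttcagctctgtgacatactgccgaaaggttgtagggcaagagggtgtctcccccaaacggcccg
Hoxd1: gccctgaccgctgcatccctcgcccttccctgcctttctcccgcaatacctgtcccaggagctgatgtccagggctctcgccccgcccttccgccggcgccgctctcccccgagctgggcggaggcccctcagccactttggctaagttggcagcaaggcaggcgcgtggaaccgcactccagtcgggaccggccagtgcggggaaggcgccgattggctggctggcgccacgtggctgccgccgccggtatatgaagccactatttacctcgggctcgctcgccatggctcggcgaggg
Hoxb1 had 1 match, starting 162 bases before the gene start, and Hoxd1 had none in this window. The letters were present in 8.85% of all 32851 promoter windows and in 4 of 24 windows of HOX genes (Hoxa2, Hoxb1, Hoxb8 and Hoxd11). Windows of HOX genes had a median observed-to-expected CpG ratio of 0.626, against 0.384 over all windows. A match is a description of letters and does not show binding.

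As a check of the labels, Nos3 had a signal of 7.13, 7.39 and 7.27 log2 on eNOS-deficient 11, 15 and 19 and of 7.99, 7.88 and 7.36 on WT 2, 3 and 5, a difference of -0.48 (limma adjusted p = 0.399, and a two-sided exact permutation p of 0.2, where 3 samples against 3 cannot go below 0.1). The WT 5 value lay among those of the eNOS-deficient arrays. Whether the Nos3 probes lie outside a deleted stretch is not given in the sources. Smooth muscle markers were present on all arrays (10 of 10 above the median probe set), with list means of 9.37 to 9.64 in eNOS-deficient aorta and 9.10 to 9.35 in WT and with Acta2, the smooth muscle actin, averaging 12.51. WT 5 stood apart in squamous epithelium markers, whose mean was 5.02 to 5.17 in eNOS-deficient aorta, against 5.90 on WT 2, 5.29 on WT 3 and 8.16 on WT 5. Y-linked markers averaged 7.76 and 4.71 on eNOS-deficient 11 and 15, were higher still on 19, and averaged 3.47 to 3.63 on the WT arrays. Every eNOS-deficient array thus lay above every WT array in this signal, a marker of sex. Differences by genotype and by Y-linked signal therefore cannot be told apart in these samples. Skeletal muscle markers were highest on eNOS-deficient 11 (11.37) and lowest on WT 3 (9.01). Lymphocyte markers averaged 6.07 on eNOS-deficient 11, against 7.84 to 8.66 on the other arrays. Most results below that rest on WT 5 are given with and without it, and in tissue RNA fewer cells of a type and less RNA per cell cannot be told apart.

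HOX signal above the median probe set was found at every paralogue number from 2 to 10. Among paralogues 5 to 8, 8 of 11 genes had a mean over the 6 arrays above the median of all probe sets, 5.59 log2. The share was 6 of 10 among paralogues 1 to 4 and 4 of 15 among paralogues 9 to 13. No gene with a number of 11 or more lay above it, and both genes under the dim filter of 4.38 log2, Hoxc11 (mean 4.07) and Hoxd13 (4.32), were among these. Hoxb8 lay just inside the filter at 4.39. Probe sets differ in how brightly they respond to the same amount of RNA, so these levels are set against the array's own distribution and not against each other.

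**Figure D1:**
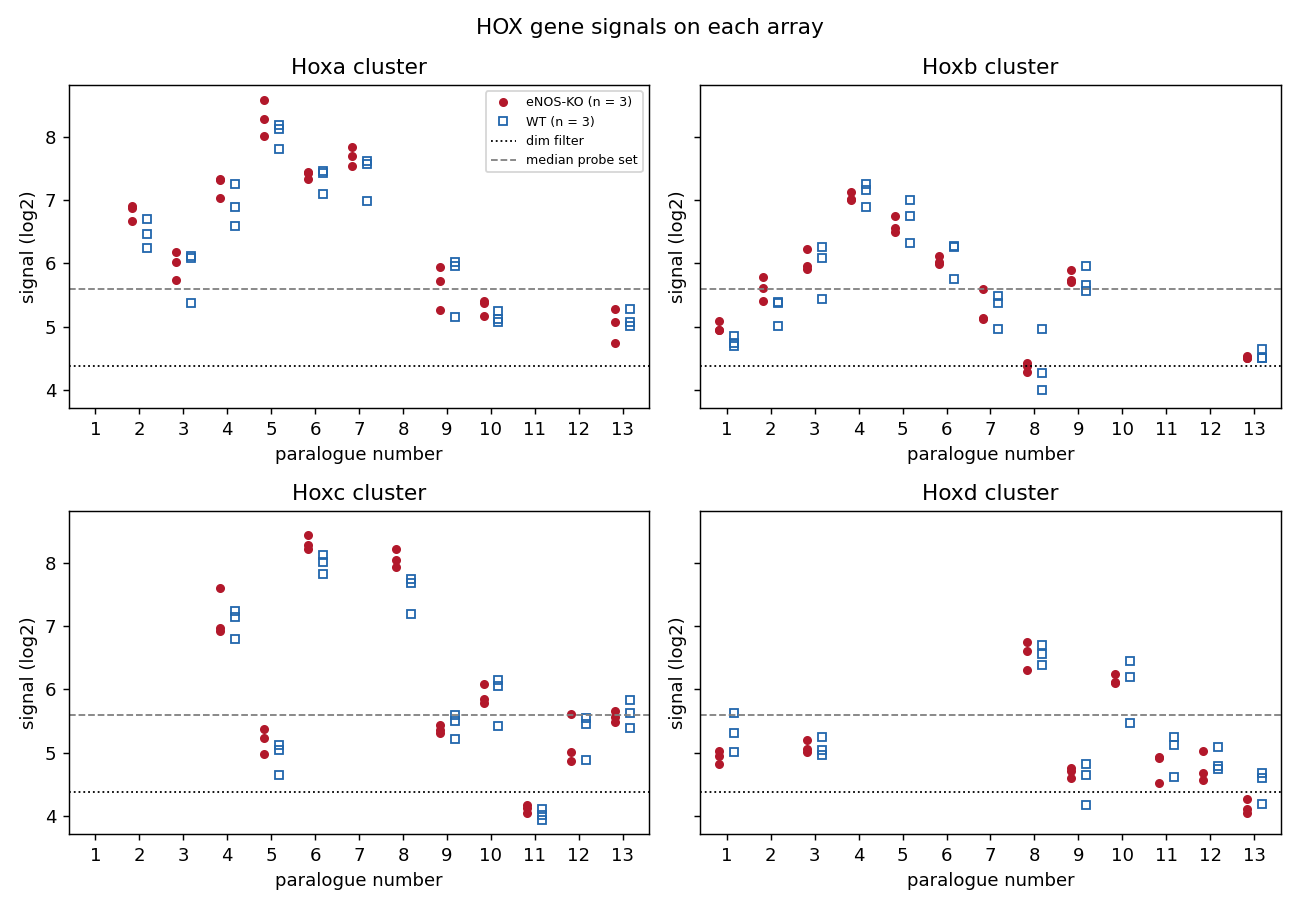
Signal (log2) of each of the 36 HOX genes on each array, by paralogue number, in 1 panel per cluster; filled circles are the 3 eNOS-deficient arrays and open squares the 3 WT arrays. The dotted line is the dim filter (4.38) and the dashed line the median probe set (5.59): in every panel the genes numbered 11 to 13 average below the dashed line, and most genes numbered 4 to 8 average above it.

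Brightest at each paralogue number, the front end of the code read as follows. Hoxd1, which in mouse sensory neurons shapes pain circuits, had signals of 5.03, 4.94 and 4.82 log2 on eNOS-deficient 11, 15 and 19 and of 5.32, 5.62 and 5.01 on WT 2, 3 and 5. Hoxa2, the selector gene of the second pharyngeal arch, had 6.88, 6.91 and 6.67 on the eNOS-deficient arrays and 6.70, 6.46 and 6.24 on the WT arrays. For both genes the groups overlapped by 1 array, WT 5 for Hoxd1 and WT 2 for Hoxa2. Hoxb3, a gene of the hindbrain and pharyngeal region, had 6.22, 5.92 and 5.97 on the eNOS-deficient arrays and 6.26, 6.08 and 5.44 on the WT arrays. Hoxc4, of the neck region, had 7.59, 6.91 and 6.97 against 7.23, 6.79 and 7.15. Their groups overlapped, with the Hoxb3 spread in WT set by WT 5. All 3 measured genes numbered 4 averaged above the median probe set, Hoxa4 at 7.07, Hoxb4 at 7.08 and Hoxc4 at 7.11.

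The trunk genes numbered 5 to 8 included the brightest probe sets of the family. Hoxa5, which patterns the neck-to-thorax boundary and the lung, had signals of 8.59, 8.28 and 8.01 log2 on eNOS-deficient 11, 15 and 19 and of 8.12, 8.19 and 7.81 on WT 2, 3 and 5, with overlap. Hoxc6, a gene of thoracic identity, had 8.43, 8.28 and 8.21 on the eNOS-deficient arrays and 8.13, 8.02 and 7.82 on the WT arrays, without overlap. Hoxa7 had 7.84, 7.70 and 7.54 against 7.57, 7.62 and 6.99, with overlap and with WT 5 lowest. Hoxc8, which sets the identity of thoracic vertebrae and is a known target of miR-196a, had 8.03, 8.22 and 7.94 on the eNOS-deficient arrays and 7.67, 7.73 and 7.19 on the WT arrays. The lowest eNOS-deficient array for Hoxc8 lay above the highest WT array. At the same numbers, Hoxc5, Hoxb7 and Hoxb8 averaged 5.06, 5.28 and 4.39, under the median probe set.

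Towards the tail end, Hoxb9, which acts in rib patterning, had signals of 5.73, 5.72 and 5.90 log2 on the eNOS-deficient arrays and of 5.96, 5.67 and 5.57 on the WT arrays. Hoxd10, a gene of lumbar motor neurons and the limb, had 6.11, 6.24 and 6.10 against 6.20, 5.47 and 6.44, so that WT 3 and WT 5 were the extremes. Hoxd11, of the limb and sacral region, had 4.92, 4.94 and 4.52 against 5.12, 5.24 and 4.62. Hoxc12 had 5.60, 5.01 and 4.87 against 5.55, 5.46 and 4.88, and the spread within each genotype exceeded the difference between them. Hoxc13, a regulator of hair and nail keratin genes, had 5.48, 5.65 and 5.56 against 5.63, 5.39 and 5.83, highest on WT 5, the array with the most squamous epithelium signal. The part of that epithelium in the Hoxc13 signal was not tested. The other tail-end genes averaged 5.68 (Hoxa9), 5.40 (Hoxc9), 4.62 (Hoxd9), 5.23 (Hoxa10), 5.89 (Hoxc10), 4.82 (Hoxd12), 5.08 (Hoxa13) and 4.54 (Hoxb13).

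Markers of organs that lie beside different stretches of the aorta were read on the same arrays, since the labels name no segment. Brown adipocyte markers, typical of fat around the thoracic aorta, had list means of 9.48 to 9.79 log2 with Ucp1, the brown fat uncoupling protein, averaging 13.01; Zic1 and Lhx8 in that list were under the median probe set. Of abdominal organ markers, 1 of 9 kidney genes, 2 of 10 liver genes and 1 of 7 pancreas genes lay above the median probe set, the highest at 5.92 (Aqp2). Of 10 adrenal cortex genes, 2 did, Mrap (9.75) and Scarb1 (7.76), both also expressed by adipocytes. Of 10 lung and airway genes, 4 did, led by Napsa (7.17), and the lung list mean spanned 4.77 to 5.61 in eNOS-deficient aorta and 5.19 to 6.22 in WT, highest on WT 2. Some lung genes were high on single arrays. Sftpc had 9.92 on eNOS-deficient 19 (4.75 to 6.46 on the others). Scgb1a1 had 8.99 and Bpifa1 9.41 on WT 2 (3.34 to 5.24 and 3.60 to 5.70 on the others). Nkx2-1, Foxj1 and Sftpd averaged under the median probe set. Of thoracic organ markers, 8 of 10 heart muscle genes lay above the median probe set, with list means of 6.20 to 7.29 in eNOS-deficient aorta and 6.50 to 7.23 in WT. The heart list was led by Sln (9.30), and skeletal muscle markers were also above the median on the same arrays. For thymus 5 of 9 did, with list means of 5.49 to 6.01 in eNOS-deficient aorta and 5.84 to 5.88 in WT. The thymus list was led by Cd8b1 (7.97), while Foxn1 (5.31), Psmb11 (5.21), Dntt (4.32) and Rag2 (4.15) were under the median. Cd8b1 and Napsa were lowest on eNOS-deficient 11 (6.76 and 6.12), as were lymphocyte markers, whose part was not tested. These values describe what the samples held and do not assign a segment to any array.

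No HOX gene differed between the genotypes past the threshold. Of the 34 HOX genes tested, 0 had an adjusted p under 0.05 in limma, where 0.0278% of all 18007 tested genes did (5 genes, 0.0111% higher and 0.0167% lower). Before adjustment 2 genes had a p under 0.05, Hoxc6 and Hoxc8, both higher, which is 5.88% of the family, where 11.6% of all genes did (7.86% higher and 3.72% lower). The arrays of the genotypes did not overlap for 4 HOX genes, Hoxb1, Hoxb2, Hoxc6 and Hoxc8, each higher in eNOS-deficient aorta. That is 11.8% of the family, against 19.5% of all tested genes (13.1% higher and 6.48% lower). Neither share of the family exceeded that of all genes. Several cell type marker lists, each with 10 of 10 genes above the median probe set, were also higher on every eNOS-deficient array than on every WT array. The list means differed by 0.32 for smooth muscle, 0.51 for adventitial fibroblasts and 0.89 for macrophages (8.43 to 8.78 in eNOS-deficient aorta, 7.45 to 7.91 in WT), and their part in these HOX differences was not tested. No HOX difference was larger than 0.53 log2, with a median standard error of 0.173 over the HOX genes and 0.156 over all genes.

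**Figure D2:**
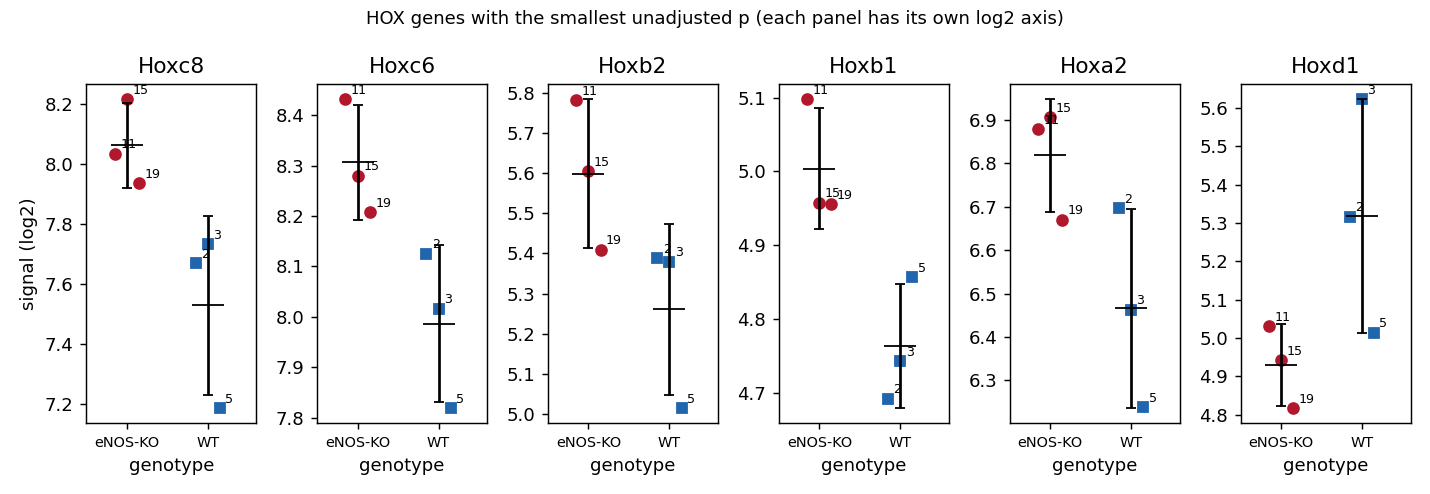
Signal (log2) of the 6 HOX genes with an unadjusted limma p under 0.1, with eNOS-deficient arrays left and WT arrays right, numbered by sample; bars are the mean and SD of 3 arrays, and each panel has its own axis. Hoxc8, Hoxc6, Hoxb2 and Hoxb1 have no overlap between groups, while Hoxa2 and Hoxd1 overlap by 1 array, and WT 5 is the lowest point for Hoxc8, Hoxc6, Hoxb2 and Hoxa2.

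Hoxc8 showed the largest difference of the family. It averaged 8.06 ± 0.14 log2 in eNOS-deficient aorta and 7.53 ± 0.30 in WT (SD, n = 3 each), a difference of 0.53 (95% interval 0.12 to 0.94, limma adjusted p = 0.344) or 1.45-fold. Without WT 5 the difference was 0.36. Its cluster neighbour Hoxc6 averaged 8.31 ± 0.11 and 7.99 ± 0.16, a difference of 0.32 (0.0085 to 0.63, limma adjusted p = 0.421), or 0.24 without WT 5. After repeated quantile normalization the Hoxc6 groups overlapped. With the squamous epithelium mean as a covariate the differences were 0.27 for Hoxc8 and 0.21 for Hoxc6.

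Among the hindbrain genes numbered 1 and 2, Hoxb2 had signals of 5.78, 5.61 and 5.41 log2 on eNOS-deficient 11, 15 and 19 and of 5.39, 5.38 and 5.01 on WT 2, 3 and 5, a difference of 0.34 (limma adjusted p = 0.473). Without WT 5 it was 0.22, and with the epithelium covariate 0.16. Hoxb1, which specifies a single hindbrain segment, had 5.10, 4.96 and 4.96 against 4.69, 4.74 and 4.86, a difference of 0.24 (limma adjusted p = 0.481), and for this gene WT 5 was the highest WT array. Hoxa2 differed by 0.35 (limma adjusted p = 0.435). Hoxd1, a paralogue of Hoxb1, differed by -0.39 (limma adjusted p = 0.445), the most negative value among the tested genes of the family, and by -0.54 without WT 5. With the epithelium covariate Hoxa2 differed by 0.21 and Hoxd1 by -0.64.

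Among the other members, all with overlapping groups, Hoxa4 averaged 7.23 ± 0.17 log2 in eNOS-deficient aorta and 6.91 ± 0.34 in WT (SD, n = 3 each), a difference of 0.32, and Hoxa7 averaged 7.69 ± 0.15 and 7.39 ± 0.35, a difference of 0.30. Hoxa5 differed by 0.25 and Hoxc5 by 0.26. Without WT 5 the value was 0.16 for Hoxa4, 0.10 for Hoxa7, 0.14 for Hoxa5 and 0.11 for Hoxc5. The difference turned from positive to negative without WT 5 for 7 genes, among them Hoxa3 (0.12, and -0.12 without WT 5), Hoxb3 (0.11 and -0.14), Hoxa6 (0.079 and -0.038) and Hoxc10 (0.027 and -0.20), with Hoxb7, Hoxb9 and Hoxd9 the others. Hoxc13 turned the other way (-0.051 and 0.056). Members with a difference near 0 included Hoxd8, which acts in the caudal trunk, at 6.55 ± 0.23 in eNOS-deficient aorta and 6.54 ± 0.16 in WT, and Hoxb6, a gene of the thoracic trunk, at 6.04 ± 0.072 and 6.09 ± 0.30. In both the spread within a genotype exceeded the difference. After Hoxd1, the most negative difference was that of Hoxd11 (-0.20, and -0.39 without WT 5), followed by Hoxc12 (-0.13, and -0.34 without WT 5).

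The paralogue classes had small median differences. The median difference was 0.12 log2 over the 10 tested genes numbered 1 to 4, 0.079 over the 11 numbered 5 to 8 and -0.051 over the 13 numbered 9 to 13, against 0.036 over all tested genes. Over the whole family the median was 0.039, with 20 positive and 14 negative differences (58.8% positive, against 56.6% positive and 43.4% negative over all tested genes). The split was 26 and 8 with arrays centred on their medians and 27 and 7 after repeated quantile normalization. Without WT 5 these medians were 0.040, 0.087 and -0.14 by class and -0.054 over the family (14 positive, 20 negative). The sign of the family's median thus changed without that array. Over all tested genes the median also fell without WT 5, to 0.0013 (9048 positive, 8959 negative). By cluster the median was 0.16 in Hoxa (7 of 9 positive), -0.014 in Hoxb (5 of 10), 0.063 in Hoxc (5 of 8) and -0.0051 in Hoxd (3 of 7). Without WT 5 those medians were 0.098, -0.14, 0.085 and -0.065.

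**Figure D3:**
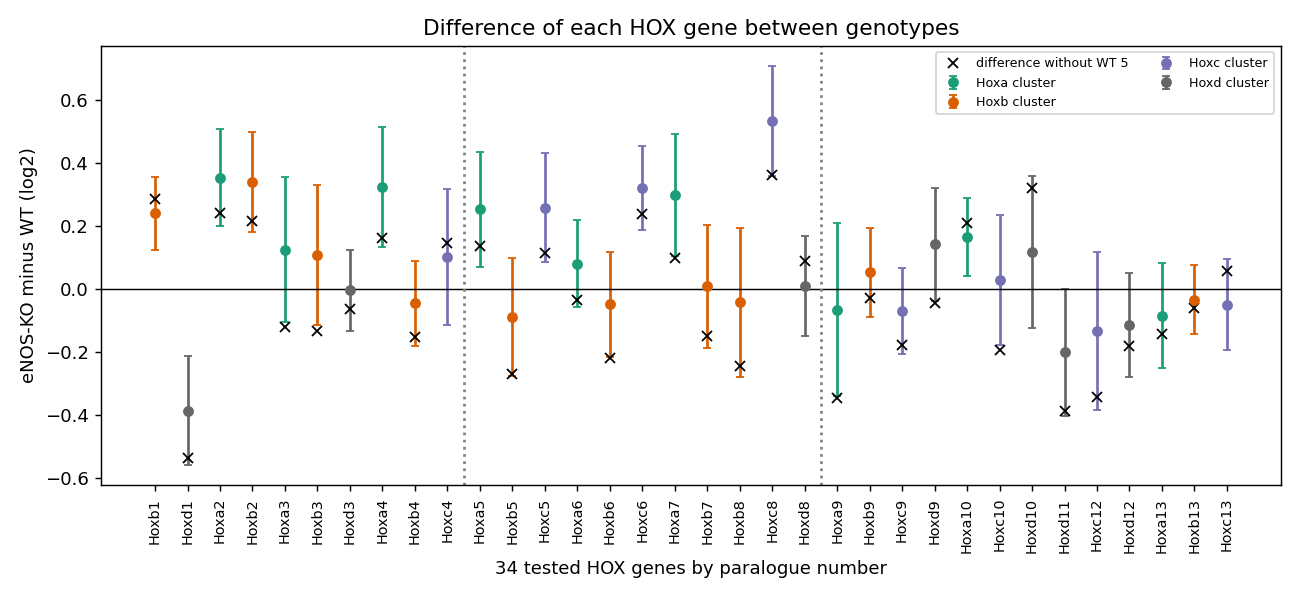
Difference (eNOS-deficient minus WT, log2) of the 34 tested HOX genes in order of paralogue number, coloured by cluster, with the standard error from limma as bars and black crosses for the difference without WT 5; dotted lines part the classes 1 to 4, 5 to 8 and 9 to 13. Values run from -0.39 (Hoxd1) to 0.53 (Hoxc8), and without WT 5 most points lie lower.

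HOX signal varied from array to array within each genotype. For each gene the deviation of an array from the mean of all 6 was taken and averaged over the family, which sets no probe set against another. The family mean was 0.11, 0.044 and -0.043 log2 on eNOS-deficient 11, 15 and 19 and 0.13, 0.016 and -0.25 on WT 2, 3 and 5, while over all tested genes it stayed between -0.028 and 0.023. WT 5 was the lowest array for 23 of 34 HOX genes, where it was lowest for 32.7% of all tested genes, and WT 2 was the highest for 13 of 34, against 16.2%. WT 5 was low in every class (-0.28 for genes 1 to 4, -0.34 for genes 5 to 8 and -0.15 for genes 9 to 13). On the same array squamous epithelium markers averaged 8.16 and endothelial markers 7.99 (8.20 to 8.80 on the other arrays), and the part of either in the low HOX values was not tested. Exceptions that were highest on WT 5 were Hoxc13 (5.83) and Hoxd10 (6.44).

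**Figure D4:**
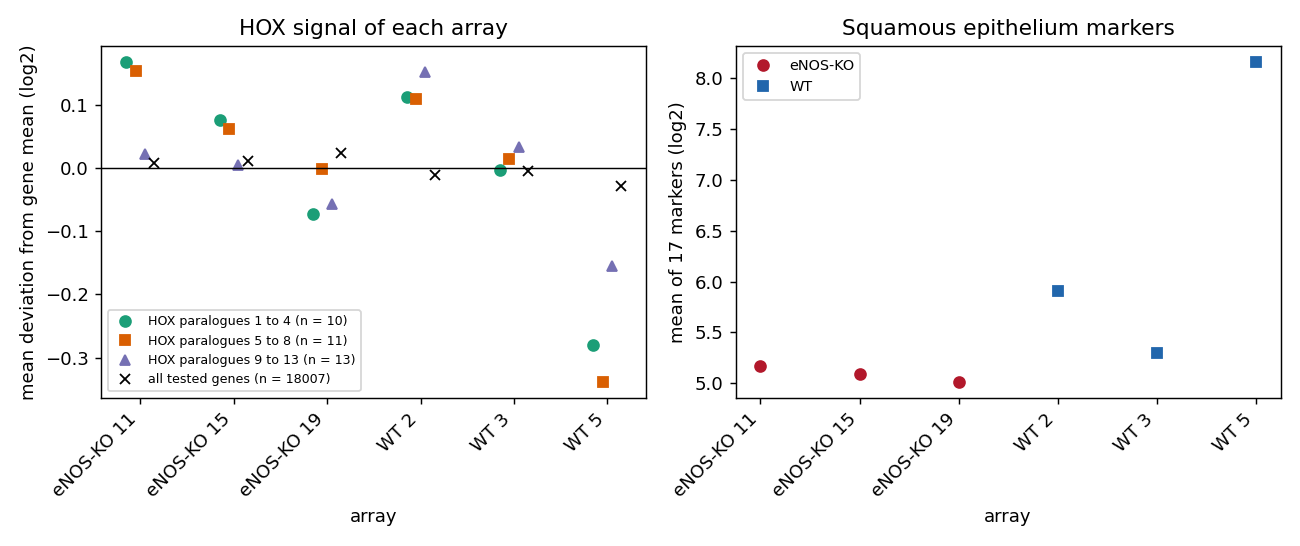
Left, mean deviation of each array from the gene means (log2) for the 3 HOX classes and for all tested genes; right, mean signal (log2) of 17 squamous epithelium markers on the same arrays. WT 5 lies at -0.34 to -0.15 in the HOX classes and at 8.16 in the epithelium markers, against 5.02 to 5.90 elsewhere.

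A tail-to-head contrast, the mean deviation of genes 9 to 13 minus that of genes 1 to 4, was -0.15, -0.072 and 0.016 log2 on eNOS-deficient 11, 15 and 19 and 0.040, 0.036 and 0.13 on WT 2, 3 and 5. All 3 WT arrays lay above the eNOS-deficient arrays, by a difference of -0.13 between genotype means (eNOS-deficient -0.067 ± 0.081, WT 0.067 ± 0.051; SD, n = 3 each), a description given without a test. The gap between the nearest arrays, eNOS-deficient 19 and WT 3, was smaller than the SD within either genotype. With each array left out in turn the contrast ran from -0.18 to -0.095, and after repeated quantile normalization it was -0.092. Fewer of genes 9 to 13 lay above the median probe set (4 of 15) than of genes 1 to 4 (6 of 10). Tested HOX genes above that level had a median difference of 0.10 (14 of 18 positive) and those under it -0.039 (6 of 16). Over all genes a 50th percentile filter moved the median from 0.036 to 0.081. The part of probe set brightness in the contrast was not tested.

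Second probe sets gave a further reading of some members. A dimmer probe set of Hoxb5 (mean 5.96, against 6.65 for the brightest) differed by 0.073, where the brightest differed by -0.090. Probe sets listing several symbols were left out of the tests. Of these, 1 listing Hoxa7 together with Mira differed by 0.32, beside 0.30 for Hoxa7 itself, and 1 listing Hoxd4 together with Hoxd3 by -0.18, beside -0.0051 for Hoxd3. A probe set listing Hoxa3 together with 5730446D14Rik differed by -0.29, beside 0.12 for Hoxa3. A pair listing Hoxa11 together with Hoxa11os differed by -0.29 and -0.19.

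Noncoding RNAs of the clusters gave 0 calls among 7 tested members in limma, adjusted or not, with 6 of 7 differences negative (median -0.17). The miR-196a precursor gene Mir196a-2, beside Hoxc9 and Hoxc10, had signals of 4.42, 4.54 and 4.67 log2 on eNOS-deficient 11, 15 and 19 and of 5.57, 5.08 and 4.45 on WT 2, 3 and 5. The WT 5 value lay among the eNOS-deficient ones, and the difference of -0.49 did not pass (limma adjusted p = 0.518). For Mir196a-2 it was -0.78 without WT 5, where the groups no longer overlapped, and -0.22 without WT 2. Mir196a-1, which encodes the same mature sequence as shown above, differed by -0.071, and Mir615 by -0.10. Mir10b lay under the dim filter at a mean of 2.64, and Mir10a was read only together with Hoxb4. Hotair, a long noncoding RNA of the Hoxc cluster, averaged 4.65 ± 0.16 in eNOS-deficient aorta and 4.83 ± 0.092 in WT, and the antisense transcript Hoxaas3 averaged 5.84 ± 0.19 and 6.12 ± 0.31. Gm53, of the Hoxb cluster, was the only tested member of this list without overlap, at 5.03 ± 0.10 in eNOS-deficient aorta against 5.19 ± 0.080 in WT. That is 1 of 7, where 6.48% of all genes had no overlap in that direction. Gm53 averaged 5.11, under the median probe set. Its groups overlapped with arrays centred on their medians and after repeated quantile normalization.

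A list of HOX cofactors and other genes gave 0 calls among 12 tested members in limma. It held PBX, MEIS and PKNOX genes together with Tgif1, Tgif2, Hmbox1 and Pbxip1. Before adjustment 2 had a p under 0.05, where 7.86% of all genes did in that direction. The groups did not overlap for 5 (Pbx2, Meis2, Meis3, Pknox1 and Hmbox1), where 13.1% of all genes had no overlap in that direction. All of these were higher in eNOS-deficient aorta (list median 0.12, against 0.036 over all genes). Pbx2, a partner that binds DNA beside HOX proteins, had signals of 5.94, 6.10 and 6.34 log2 on eNOS-deficient 11, 15 and 19 and of 5.67, 5.84 and 5.69 on WT 2, 3 and 5, a difference of 0.39 (limma adjusted p = 0.376). Meis2, a member of the MEIS family, had 8.07, 8.06 and 7.73 against 7.56, 7.59 and 7.71, a difference of 0.33 (limma adjusted p = 0.418), where eNOS-deficient 19 and WT 5 nearly met. Meis3 differed by 0.18 and Pknox2 by 0.33 (0.50 without WT 5), neither past.

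Inputs to HOX expression were read from retinoic acid and Cdx genes, of which 0 of 20 tested passed in limma, 3 had an unadjusted p under 0.05, all higher, where 7.86% of all genes did, and the median was 0.057. Aldh1a3, an enzyme that makes retinoic acid, had signals of 6.65, 6.52 and 6.86 log2 on the eNOS-deficient arrays and of 5.88, 5.94 and 6.35 on the WT arrays, a difference of 0.62 (limma adjusted p = 0.289). The retinoid receptors Rxrg and Rxra differed by 0.54 (limma adjusted p = 0.289) and 0.34, and Dhrs3, which turns retinaldehyde back to retinol, by 0.40. The Dhrs3 difference was 0.21 without WT 5 and 0.12 with the epithelium covariate. For these 4 genes, all higher, the arrays of the genotypes did not overlap, where 13.1% of all genes had no overlap in that direction. In the other direction 1 of the 20 had no overlap, where 6.48% of all genes did. This was Crabp2, with a difference of -1.33 (limma unadjusted p = 0.0972). It had 4.83 to 5.21 in eNOS-deficient aorta, and 5.59, 5.25 and 8.19 on WT 2, 3 and 5. The size of that difference rested largely on WT 5, the array with the most squamous epithelium signal, whose part was not tested.

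Polycomb and trithorax genes, whose products hold HOX clusters silent or active, gave 0 calls among 34 tested members in limma, with or without adjustment (median 0.035, 21 positive and 13 negative). The groups did not overlap for 3 of the 34 in the higher direction and for 1 in the lower. Over all tested genes those shares were 13.1% and 6.48%. Ezh2, the histone methyltransferase of the silencing complex, averaged 7.90 ± 0.092 in eNOS-deficient aorta and 8.14 ± 0.11 in WT without overlap, a difference of -0.25 (limma adjusted p = 0.485). Ash2l and Rbbp7 each differed by 0.24 to 0.25, also without overlap. Kdm6a, an X-linked demethylase that acts on the same mark, had 8.01, 8.89 and 8.44 on eNOS-deficient 11, 15 and 19, against 8.93, 8.95 and 8.71 on WT 2, 3 and 5. Its eNOS-deficient values were low on the arrays with high Y-linked signal, 11 and 19. The difference was -0.41, and 0.23 with a Y-linked covariate.

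Genes flanking the clusters likewise gave 0 calls among 25 tested members in limma, before or after adjustment, with a median of 0.059. Copz1 and Calcoco1, beside the Hoxc cluster, differed by 0.42 (0.26 without WT 2) and 0.24 (0.16 without WT 3). Hibadh and Snx10, near the Hoxa cluster, differed by 0.23 each, and by 0.12 and 0.11 with the epithelium covariate. Of 47 tested regional transcription factors outside the HOX family 0 passed in limma and 2 had an unadjusted p under 0.05, a smaller share than the 11.6% of all genes. They were the mesenchymal homeobox genes Prrx1 (difference 0.39, limma adjusted p = 0.333) and Prrx2 (0.34, and 0.17 with the epithelium covariate), both without overlap. Adventitial fibroblast markers, list means 9.36 to 9.57 in eNOS-deficient aorta and 8.77 to 9.19 in WT, lay apart in the same direction, and their part was not tested. Meox1 differed by 0.30. Pax9, a factor of pharyngeal and oesophageal epithelium, had 5.65, 5.60 and 5.63 on the eNOS-deficient arrays and 6.07, 5.64 and 6.93 on the WT arrays, highest where squamous epithelium markers were highest.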

How the data were processed

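Total RNA of 6 aorta samples (300 ng each, per the labels) went onto 1 array per sample. The deposited values are on a log2 scale; the submitters' processing notes name RMA and Affymetrix Expression Console 1.3.1, and RMA corrects background, equalizes array distributions and summarizes probes; the build is not given in the sources used here. Values were used as deposited. The array medians over all probe sets were not level. They were 5.55, 5.58 and 5.59 log2 on eNOS-deficient 11, 15 and 19 and 5.63, 5.61 and 5.68 on WT 2, 3 and 5. Every WT median thus lay above every eNOS-deficient one, and alternatives with centred or renormalized arrays are given.

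Of 41345 probe sets, the platform annotation gave 1 symbol for 23521, several for 1814 and none for 16010. The brightest probe set stood for each of 22180 genes, and genes averaging under the 25th percentile of probe sets (4.38 log2) were left out, leaving 18007. The genotypes were compared with limma 3.58.1 in R 4.3.3 (lmFit, eBayes, two-sided, no covariates, Benjamini-Hochberg over all tested genes at 0.05). No detection calls were used, and the number of arrays limits the precision. On simulated data for 18007 genes the fit recovered 6% of genes changed 1.5-fold, 58% of those changed 2-fold and 94% of those changed 4-fold.

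HOX genes with an unadjusted p under 0.05 or no overlap, the brightest gene of each paralogue number and up to 4 genes of smallest p from each of 6 other lists were named with values. HOX genes with an unadjusted p under 0.1 and single markers were added after their values were seen. The members, lists and tests were chosen with earlier results of these data known. Alternatives covered the dim filter, variance model, probe set choice, normalization, array weights, covariates, threshold and each array left out. Promoter and microRNA sequences came from RefSeq (GRCm38.p6); 22 HOX genes had a promoter window. One item is not reported here.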

Additional observations from a re-analysis of the deposited data

How the results depend on the processing

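No HOX gene had an adjusted p under 0.05 under any alternative run, and the 6 HOX genes described in detail kept their signs. No paired analysis was possible because the genotypes share no sample number. Over all genes the 5 calls were 3 without a dim filter, 2 with probe sets averaged per gene, with an epithelium covariate or after repeated quantile normalization, 0 with a Y-linked covariate (503 at an unadjusted p under 0.05 in limma), 119 with array weights, 8 at an adjusted p under 0.1 and 0 to 6 with an array left out. HOX genes at an unadjusted p under 0.05, 2 in the main comparison, numbered 0 with a Y-linked covariate, 4 with arrays centred on their medians or with array weights, and 0 to 4 with an array left out (1 without eNOS-deficient 11, 0 without eNOS-deficient 15, 4 without WT 2 and 1 without WT 3). With an epithelium covariate the 2 were Hoxd1 and Hoxd11, in place of Hoxc6 and Hoxc8 (14.1% of all genes). HOX genes without overlap, 4 in the main comparison (19.5% of all genes), were 2 of 18 with a 50th percentile filter (20.8% of all genes). They numbered 4 to 12 with an array left out, where fewer arrays have to separate. They were 11 without eNOS-deficient 19 (28.9% of all genes), 7 without WT 2 (26.5%) and 12 without WT 5, 5 higher and 7 lower (35.3%). Centring moved the median of all genes and that of the HOX genes to 0.10 log2 each; the HOX median was -0.094 with an epithelium covariate and -0.026 with array weights, and ran from -0.054 to 0.14 with an array left out. Genes 9 to 13 had a median of -0.20 with an epithelium covariate. Kdm6a turned to 0.23 with a Y-linked covariate and Pax9 to 0.0016 with an epithelium covariate. Y-linked signal itself separated the genotypes, so fits with that covariate cannot part it from genotype.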
